A study of Mus musculus with 9 samples.

Results

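Mouse embryonic stem cells that stably carry an EWS-OCT-4 fusion (the EWS-OCT4 line) were compared with cells that stably carry OCT-4 without the fusion (the OCT4 line), by RNA-seq of 3 libraries each. These 6 libraries, taken by their line name, are 6 of the 9 in the series. The labels name the lines Niwa EWS-OCT-4 and Niwa OCT-4. Cells of both lines grew in embryonic stem cell medium with LIF and received doxycycline at 1 µg/ml, which was given to lower the OCT-4 that the cells make themselves. The 3 other libraries are from J1, an established mouse embryonic stem cell line and the study's control, and are used here for the spread between libraries and for side values. The labels give neither the promoter of the introduced genes nor the number of clones, and they do not say whether the 3 libraries of a line came from separate cultures. The p-values therefore speak only of how these libraries varied, and that variation may be technical.

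OCT4, the product of Pou5f1, is a POU-family transcription factor that binds an octamer sequence and is needed for stem cell self-renewal. Loss of OCT4 in embryonic stem cells is known to lead to trophectoderm. EWS, the product of Ewsr1, is an RNA-binding protein whose flexible first part works as a strong activation domain when a chromosome break joins it to a transcription factor, as in Ewing sarcoma and in some tumours with an EWS-OCT4 fusion. Pluripotency and trophectoderm markers are outside the scope here, which is the pathways and gene families beyond them.

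Deposited counts totalled 21149358 to 24786305 per library over the series. Pou5f1 was counted at 25.6, 29.3 and 25.6 CPM (counts relative to the library's total, scaled for its composition) in EWS-OCT4 libraries 1 to 3 and at 165, 168 and 162 CPM in OCT4 libraries 1 to 3. Every EWS-OCT4 library lay below every OCT4 library, by 6.14-fold on average (log2 fold change -2.62, SE 0.0874). An exact two-sided permutation test over the 6 libraries gave p = 0.1, the smallest it can give with 3 against 3. Whether the introduced sequence is counted under Pou5f1 is not given in the sources used here. Ewsr1 stood at 495, 549 and 551 CPM against 426, 465 and 516 CPM, and was not called (edgeR's quasi-likelihood test, adjusted p = 0.0979). That call depended on the setting: the adjusted p was 0.00802 when only the 6 libraries were fitted, 0.0143 without the low-count filter, and 0.0478, 0.0182 and 0.04 without EWS-OCT4 replicate 1, J1 replicate 1 and OCT4 replicate 3.

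Of 16562 genes with enough counts to be tested, 31.9% were higher and 34.6% were lower in the EWS-OCT4 line than in the OCT4 line (edgeR's quasi-likelihood test, Benjamini-Hochberg adjusted p under 0.05). A call together with a change of at least 2-fold was made for 8.54% of genes in the higher and 15.8% in the lower direction. The median log2 fold change over all genes was -0.04. Counts of list members below are to be read against these shares. Any member that passed the low-count filter through 1 of the 2 lines alone had to differ, so such counts describe the tested genes only. The values of the 2 lines did not overlap for 12067 of the 16562 genes. Most genes named below were required to meet this, so their lack of overlap is no separate result. The mitochondrial share of counts was 16.3 to 17.1% in the EWS-OCT4 line and 10.1 to 12.5% in the OCT4 line, and the noncoding RNA Gm26917 took 1.64 to 1.84% against 3.71 to 5.81%. Genes of the X chromosome had a median log2 fold change of -0.52 (605 genes), while the median of each autosome lay between -0.14 and 0.06. The 10 tested genes of the Y chromosome had a median of 1.60 and the 18 mitochondrial genes one of 0.60. With each gene's chromosome median subtracted, no called gene among the 291 examined changed direction. Of the medians of the 32 lists below, 11 moved by at least their standard deviation over the EWS-OCT4 libraries. The part of these shifts in the results was not tested beyond this and other scalings. Fewer cells of a type and less RNA per cell cannot be told apart in such bulk samples.

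Embryonic stem cell markers were abundant in both lines: the 10 listed genes summed to 3594 to 3678 CPM in the EWS-OCT4 line and 3084 to 3141 CPM in the OCT4 line. Marker lists of other cell types differed in their sums, which often rested on 1 gene; each sum was therefore also taken without the member that differed most between the lines, a choice made after the values were seen. The 12 trophoblast markers summed to 135 to 139 CPM against 337 to 364 CPM, with the placental hormone gene Prl3d1 and the spongiotrophoblast gene Tpbpa at 0 in both; without Tfap2c the sums were 32.6 to 34.5 CPM against 122 to 144 CPM. The sum of 14 extraembryonic endoderm markers was 508 to 527 CPM against 751 to 793 CPM, but without the collagen gene Col4a1 the order turned, to 484 to 499.5 CPM against 458 to 462 CPM. The laminin gene Lama1 and the factor gene Sox7 of that list were higher in the EWS-OCT4 line, by 1.96 and 3.77 on the log2 scale. For 12 fibroblast markers it was 43.0 to 45.2 CPM against 61.6 to 68.9 CPM, with Dcn at 0 in the EWS-OCT4 and Lum at 0 in the OCT4 libraries, and without Pdgfrb the ranges overlapped (37.0 to 39.5 against 37.9 to 44.8 CPM). Mesoderm and cardiac markers (12 genes) gave 12.6 to 15.04 CPM against 19.9 to 23.8 CPM, and without Eomes 8.70 to 10.3 CPM against 8.77 to 11.5 CPM. Neural markers gave 121 to 124 CPM against 124 to 125 CPM, and 107.6 to 109 CPM against 80.1 to 82.7 CPM without Map2. Blood and endothelial markers gave 139 to 149 CPM against 135 to 138 CPM, and 23.1 to 29.0 CPM against 59.3 to 61.1 CPM without Pecam1. Of tested members, 6 of 10 trophoblast, 6 of 11 extraembryonic endoderm, 4 of 7 fibroblast and 3 of 9 mesoderm markers were lower, and 1, 2, 1 and 4 were higher. The part of such cells in the gene family results below was not tested.

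The 32 lists of pathways and families hold 1480 genes. The lowest medians belonged to Hox genes, T-box and GATA factors, the retinoid pathway and fatty acid oxidation. The highest belonged to chaperones, proteasome subunits, protocadherins and one-carbon metabolism. The place of the protocadherins rests on the gamma cluster, whose genes share exons (22 of 33 tested, median 0.54). The 3 delta and 8 giant members tested had medians of -1.27 and -0.25.

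**Figure D1:**
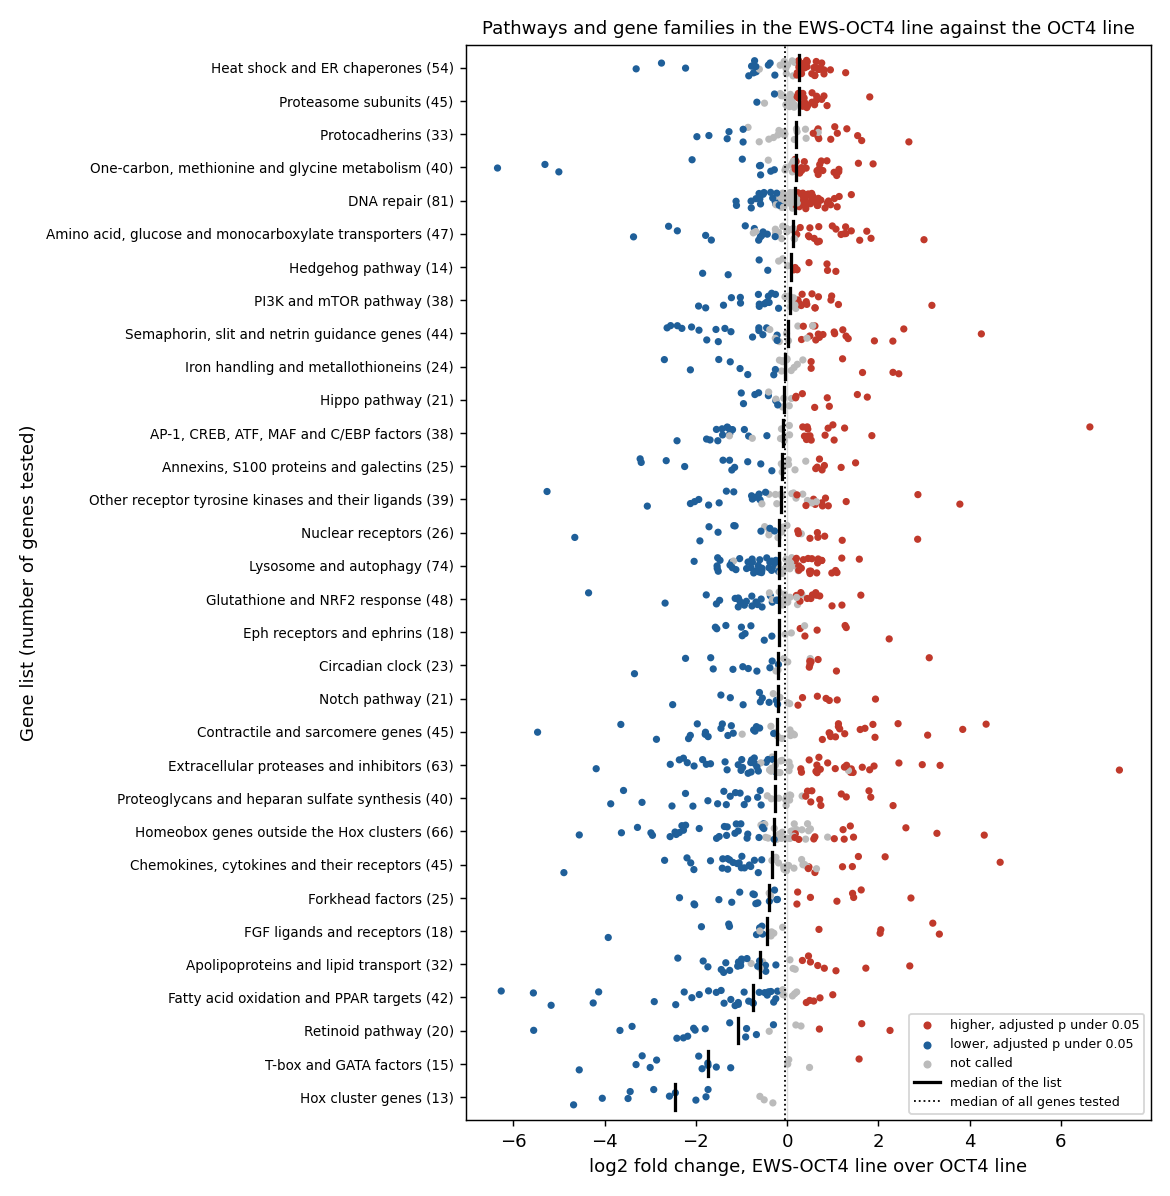
log2 fold change of each tested gene (points) of 32 lists in the EWS-OCT4 line over the OCT4 line, coloured by call, with the list's median (black bar) and the median of all 16562 genes tested (dotted line, -0.04). List medians ran from -2.45 for Hox cluster genes to 0.27 for heat shock and ER chaperones, and most lists held genes called in both directions.

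Hox genes, which encode the clustered homeodomain factors that pattern the body axis, had few counts in all libraries. Of 39 Hox genes, 13 could be tested; 10 of these were lower in the EWS-OCT4 line, all at least 2-fold, and 0 were higher, with a median log2 fold change of -2.45. The 26 others summed to 81 counts in the 3 EWS-OCT4 libraries and 313 counts in the 3 OCT4 libraries. Fitted without the count filter, 6 of these 26 were lower and 0 higher. A gene that passed the filter through its OCT4 libraries alone had to differ, so the count of 10 describes the tested genes only; among genes with at least 5 CPM in 3 libraries it was 3. Hoxc13, a factor of skin and hair, was read at 2.5, 2.16 and 2.82 CPM in the EWS-OCT4 libraries and 14.5, 13 and 13.4 CPM in the OCT4 libraries. Hoxb9, a trunk-level Hox gene, gave 2.6, 1.64 and 1.94 CPM against 8.17, 8.27 and 8.15 CPM. The 2 sets of libraries did not overlap for either gene, with folds of 5.46 and 3.99, and the J1 means were 1.18 and 2.46 CPM. All 5 tested genes of cluster C and all 3 of cluster B were lower, as were 2 of 3 of cluster A; the 2 of cluster D were not called.

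T-box and GATA factors, which direct mesoderm, blood, trophoblast and endoderm fates, had mostly lower calls among the tested genes. Of 22, 15 were tested; 11 were lower and 1 was higher, all of them at least 2-fold, with a median of -1.74 (the single higher call was lost without EWS-OCT4 replicate 3, leaving 0). A member that passed the filter through its OCT4 libraries alone had to differ, so the count of 11 describes the tested genes only. Among genes with at least 5 CPM in 3 libraries 5 were lower and 0 higher. Gata1, the erythroid master regulator, fell from 9.37, 6.96 and 8.32 CPM in the OCT4 libraries to 1.25, 0.649 and 0.842 CPM in the EWS-OCT4 libraries. Its cofactor FOG1, encoded by Zfpm1, fell from 46.8, 52.2 and 51.3 CPM to 5.82, 6.62 and 6.32 CPM, 8.0-fold (SE of the log2 value 0.104, adjusted p = 1.45e-13). Tbx4, a hindlimb factor, fell from 7.66, 7.0 and 6.97 CPM to 0.529, 0.822 and 0.80 CPM. The lines were separate in every library for these 3 genes. Gata2 and Gata3, trophoblast and blood regulators named after their values were seen, also stood lower. For Gata2 the values were 4.76, 4.29 and 4.55 CPM against 17, 17.1 and 17.9 CPM, and J1 had a mean of 0.837 CPM. For Gata3 they were 2.84, 3.16 and 2.19 CPM against 17.8, 19.8 and 21.7 CPM, with 0.183 CPM in J1. In both of these genes the EWS-OCT4 libraries thus lay between J1 and the OCT4 line. The trophoblast markers, Gata3 among them, summed to 135 to 139 CPM against 337 to 364 CPM, and their part in these values was not tested. Mga, a MAX partner with a T-box and the list's member with the most counts, did not pass the test (299.6, 288 and 294 against 302, 299 and 271 CPM).

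Among 109 homeobox genes outside the Hox clusters, 66 were tested; 29 were lower and 13 higher (8 without OCT4 replicate 1), with a median of -0.28, and 22 were lower and 8 higher by at least 2-fold. Prox1, a regulator of lymphatic and liver fate, was lower at 0.769, 0.563 and 0.548 CPM against 6.69, 8.76 and 7.81 CPM. Hesx1, a forebrain and pituitary factor, stood at 1.01, 1.34 and 1.18 CPM against 11.3, 11.5 and 11.7 CPM. Lmx1b, needed for limb dorsal fate and some neurons, stood at 1.54, 1.13 and 1.35 CPM against 7.34, 7.95 and 8.4 CPM. These 3 genes were 12.4-, 9.7- and 5.91-fold lower with no overlap. Other homeobox genes rose. En1, the midbrain-hindbrain Engrailed gene, rose from 0.462, 0.497 and 0.84 CPM to 5.96, 5.93 and 5.94 CPM. Nkx6-2, a neural tube factor, rose from 2.26, 0.903 and 1.34 CPM to 8.99, 9.7 and 8.72 CPM. Zfhx2, which encodes a protein with several zinc fingers and homeodomains, rose from 67.9, 81.8 and 66.8 CPM to 139.7, 153 and 151 CPM, 2.05-fold. Pax6, the eye and forebrain paired-box gene, was among the largest rises of any gene, with 10.1, 10.9 and 10.4 CPM against 0.462, 0.316 and 0.588 CPM (22.6-fold, SE of the log2 value 0.203, adjusted p = 3.46e-12). Sall3, a spalt zinc-finger gene, rose from 2.54, 3.07 and 3.44 CPM to 53.5, 51.8 and 51.3 CPM. Every EWS-OCT4 library exceeded every OCT4 library for these 5 genes, and the J1 means of Pax6 and Sall3 were 2.02 and 2.01 CPM.

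Forkhead factors were split, with 8 higher and 14 lower of 25 tested (17 others not tested), a median of -0.39, and 5 higher and 6 lower by at least 2-fold. Foxp4, a repressor with roles in gut and lung, rose from 38.7, 47.9 and 48.9 CPM to 126, 150.3 and 142 CPM. Foxh1, the DNA-binding partner of SMAD2 and SMAD3 in Nodal signalling, rose from 9.46, 9.67 and 9.45 CPM to 19.4, 20.8 and 20.7 CPM. Foxo3 and Foxo4, targets of AKT that promote stress resistance, fell. Foxo3 went from 130.1, 137 and 122 CPM to 56.3, 55.3 and 56.3 CPM and the X-linked Foxo4 from 61.1, 68.9 and 71.1 CPM to 31.4, 33.8 and 32.8 CPM, 2.32- and 2.05-fold lower. None of these 4 genes overlapped between the lines.

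The retinoid pathway, in which binding proteins and dehydrogenases turn vitamin A into retinoic acid that acts through RAR receptors, had mostly lower members. Of 20 tested genes (6 were not), 14 were lower and 3 higher, 10 and 2 of them by at least 2-fold, and the median was -1.08. All 5 tested transport genes were lower, as were 3 of 6 synthesis genes, both tested CYP26 breakdown genes and both tested target genes. Here too, members that passed the filter through OCT4 libraries alone had to differ. Aldh1a3, which makes retinoic acid, stood at 0.817, 1.3 and 0.716 CPM in the EWS-OCT4 libraries and 5.4, 4.88 and 4.92 CPM in the OCT4 libraries. Stra8, a retinoic acid response gene of germ cells, gave 3.51, 2.12 and 2.99 CPM against 36.4, 31.2 and 41.1 CPM. Both were lower in all EWS-OCT4 libraries, by 5.33- and 12.7-fold. Tgm2, a retinoic acid-inducible transglutaminase, fell from 83.7, 94.1 and 84 CPM to 8.37, 8.79 and 7.71 CPM, 10.5-fold (log2 -3.40, SE 0.0989, adjusted p = 2.27e-14). The receptor gene Rarg moved the other way, from 56.8, 71.2 and 73.2 CPM to 99, 115 and 115 CPM, 1.63-fold. Other nuclear receptors were mixed, with 8 higher and 9 lower of 26 tested and a median of -0.17. Ppard, a fatty acid-sensing receptor, was 1.49-fold lower (27.5, 30.04 and 30.6 against 41.9, 42.9 and 46.3 CPM). Nr1h2, the oxysterol receptor LXR beta, was 1.59-fold higher (48.2, 54.8 and 52.7 against 30.9, 33.2 and 34.1 CPM).

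**Figure D2:**
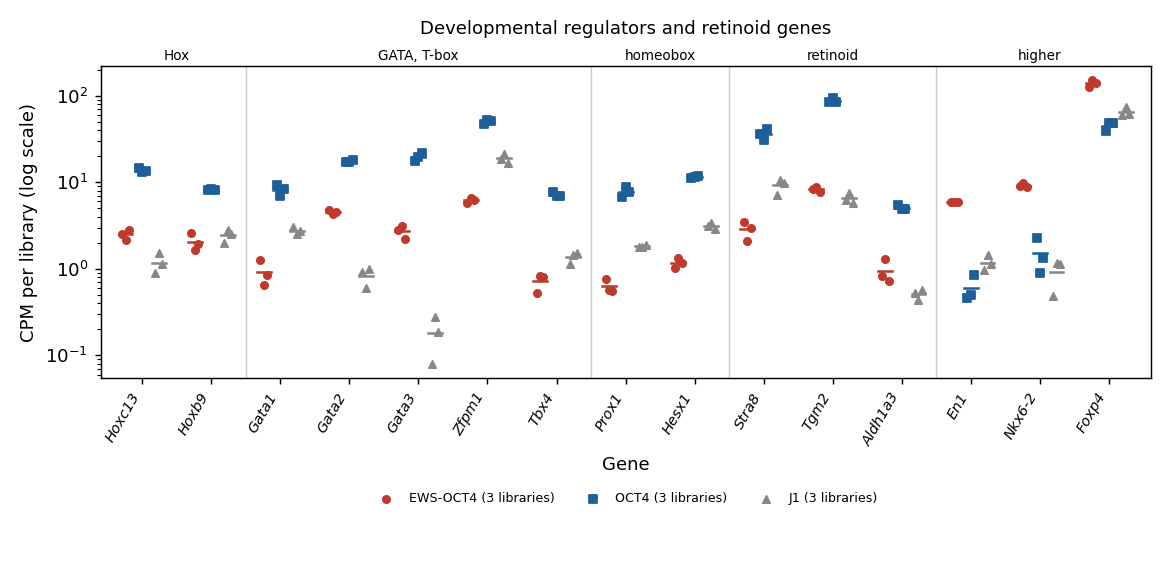
CPM per library (log axis) of developmental regulators and retinoid genes, with 3 points per line and a bar at the mean, for the EWS-OCT4, OCT4 and J1 lines. Zfpm1 lay at 5.82, 6.62 and 6.32 CPM in the EWS-OCT4 and 46.8, 52.2 and 51.3 CPM in the OCT4 libraries, while En1, Nkx6-2 and Foxp4 had their highest values in the EWS-OCT4 line.

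The largest rise of any gene that met the naming rule was that of Creb5, a leucine-zipper factor that binds cyclic AMP response elements (CRE). It was read at 69.9, 67.5 and 67.3 CPM in the EWS-OCT4 libraries, 0.739, 0.497 and 0.798 CPM in the OCT4 libraries and a mean of 1.65 CPM in J1, a rise of 99.5-fold over the OCT4 line (log2 6.64, SE 0.126, adjusted p = 2.26e-16 by edgeR's quasi-likelihood test). The window around its start holds a full CRE, on GRCm38.p6 chromosome 6, plus strand, 45 bases before the RefSeq start. It is shown because this named gene rose most, with the CRE in capitals.
Creb5 promoter, chr6:53287053-53287352: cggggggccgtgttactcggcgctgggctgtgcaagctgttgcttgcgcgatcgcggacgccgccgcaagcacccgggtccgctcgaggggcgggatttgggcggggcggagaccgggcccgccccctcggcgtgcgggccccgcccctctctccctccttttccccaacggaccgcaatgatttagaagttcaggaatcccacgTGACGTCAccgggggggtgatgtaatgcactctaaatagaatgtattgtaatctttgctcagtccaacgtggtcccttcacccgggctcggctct
The letters TGACGTCA, which read the same on both strands, occurred in 3.31% of all tested genes with a promoter in the table, 2.82% of those at least 2-fold higher and 1.94% of those at least 2-fold lower. Around Creb5, the AP-1, CREB, MAF and C/EBP list was balanced, with 15 higher and 15 lower of 38 tested, 5 and 12 of them by at least 2-fold, and a median of -0.09 (0.01 after the median of each gene's chromosome was subtracted). By branch, of 9 AP-1 genes 3 were higher and 4 lower, and of 6 C/EBP genes 2 were higher and 2 lower. Of 13 CREB and ATF genes 9 were higher and 2 lower, and of 10 MAF and related genes 1 was higher and 7 lower. The CREB and ATF branch leaves out Atf3, Atf4 and Atf5. Over the 10 tested symbols that start with Atf and a digit, 4 were higher and 3 lower, with a median of -0.11. Jun, the AP-1 gene, fell from 20.5, 22.8 and 24.2 CPM to 6.25, 7.96 and 6.7 CPM. Jund, its broadly expressed relative, fell from 59.3, 58.3 and 58.9 CPM to 18.7, 21.1 and 20.5 CPM. Jdp2, a repressor that dimerises with Jun proteins, fell from 25.8, 25.2 and 26.4 CPM to 4.95, 4.63 and 4.97 CPM. All 3 were lower in every EWS-OCT4 library. Atf2, a close relative of Creb5, rose 1.42-fold (150.0, 143 and 138 against 103, 98.7 and 102 CPM), and Atf6b, an ER membrane-bound ATF, 1.87-fold (33.2, 35.7 and 35.9 against 17.3, 19.2 and 19.7 CPM).

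Axon guidance genes, whose secreted and membrane ligands steer cells and growth cones, changed in both directions. Of 44 tested semaphorin, slit and netrin genes and their receptors, 18 were higher and 18 lower, 9 and 11 of them by at least 2-fold, and the median was 0.01. Ntn1, the secreted guidance cue netrin-1, rose from 2.35, 2.35 and 2.06 CPM to 40.5, 47.8 and 41.1 CPM, 19.1-fold (log2 4.26, SE 0.117, adjusted p = 1.39e-14). Sema5b, a transmembrane semaphorin, rose from 1.66, 1.08 and 1.93 CPM to 9.71, 8.96 and 9.1 CPM. Plxnb1, the receptor of Sema4d, rose from 10.9, 10.3 and 10.3 CPM to 39.5, 40.4 and 39.1 CPM. In contrast, Slit2, the repellent ligand of Robo receptors, fell from 33.5, 34.8 and 30.5 CPM to 6.01, 4.55 and 5.43 CPM, 6.18-fold. Sema4c, a membrane semaphorin, fell from 21.4, 22 and 21.3 CPM to 3.89, 3.81 and 4.51 CPM, and Rgma, a ligand of neogenin, from 7.06, 7.86 and 8.49 CPM to 1.35, 2.16 and 1.94 CPM. The 6 genes separated the lines in every library, which the rule for naming them required.

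Growth factor genes also shifted within families. Of 39 tested receptor tyrosine kinases other than FGF receptors and their ligands, 11 were higher and 15 lower, 3 and 9 of them by at least 2-fold, and the median was -0.14; 0 of 22 receptors rose by at least 2-fold and 5 fell by that much. Pdgfc, a platelet-derived growth factor ligand, rose from 2.12, 1.49 and 1.47 CPM to 22.5, 22.9 and 24.7 CPM, 13.8-fold. Vegfc, the lymphatic growth factor, rose from 1.29, 2.08 and 1.26 CPM to 12.7, 10.8 and 10.4 CPM, 7.3-fold. Vegfa, the hypoxia-inducible vessel growth factor, fell from 216, 191 and 207 CPM to 23.2, 26 and 24.2 CPM, 8.35-fold (log2 -3.06, SE 0.0763, adjusted p = 3.59e-15). So 2 VEGF ligands moved in opposite directions with no overlap between the lines. Pdgfrb, the receptor of PDGF-B and a fibroblast marker, fell from 23.7, 25.4 and 24 CPM to 6.01, 5.71 and 5.14 CPM. The stem cell factor gene Kitl fell from 12.8, 12.4 and 11.6 CPM to 3.8, 2.99 and 2.86 CPM while its receptor gene Kit rose from 171, 156 and 153 CPM to 274, 275 and 275 CPM, 3.82-fold lower and 1.71-fold higher.

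FGF genes, which drive embryonic stem cells out of the naive state through ERK, gave 5 higher and 8 lower of 18 tested. Of these, 4 and 4 changed by at least 2-fold, and the median was -0.44. The list leaves out Fgf4, a stem cell marker that was not called (160, 159 and 161 against 171, 145 and 156 CPM). Fgf17, an FGF8-like ligand, rose from 0.693, 0.903 and 0.714 CPM to 7.79, 9.05 and 6.66 CPM, and J1 had a mean of 9.84 CPM. Fgfbp1, a carrier that releases FGFs from matrix, rose from 2.22, 2.12 and 2.1 CPM to 19.7, 18.4 and 20.9 CPM. Fgfr2, the receptor gene active in trophoblast and primitive endoderm, fell from 47.2, 47.6 and 47.5 CPM to 13.1, 13.2 and 12.4 CPM, 3.67-fold. Fgfr1, the other main receptor of stem cells, was 1.47-fold lower (71.7, 75.9 and 75.6 against 105, 108 and 113 CPM). These values did not overlap between the lines. Of 6 FGF receptor genes, 4 were lower and 1, Fgfr3, was higher at 5.63, 4.98 and 5.69 against 2.95, 3.61 and 3.44 CPM.

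Eph receptors and ephrins, which signal between touching cells, gave 6 higher and 9 lower of 18 tested and a median of -0.19, and by role, of 8 ephrin ligands 5 were lower and 3 higher, 4 lower and 0 higher by at least 2-fold, and of 10 receptors 3 rose by at least 2-fold and 0 fell by that much. Epha2, a receptor active in early embryos, rose from 24.5, 25.3 and 26.5 CPM to 119.6, 116 and 125 CPM, 4.72-fold. The X-linked ligand gene Efnb1 fell from 26.5, 28 and 31.4 CPM to 9.28, 10.4 and 9.18 CPM, and Efnb3 from 8.96, 10.2 and 9.83 CPM to 3.51, 3.85 and 4.04 CPM. Epha4, the list's member with the most counts, did not pass the test (161, 148 and 157 against 163, 165 and 153 CPM).

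**Figure D3:**
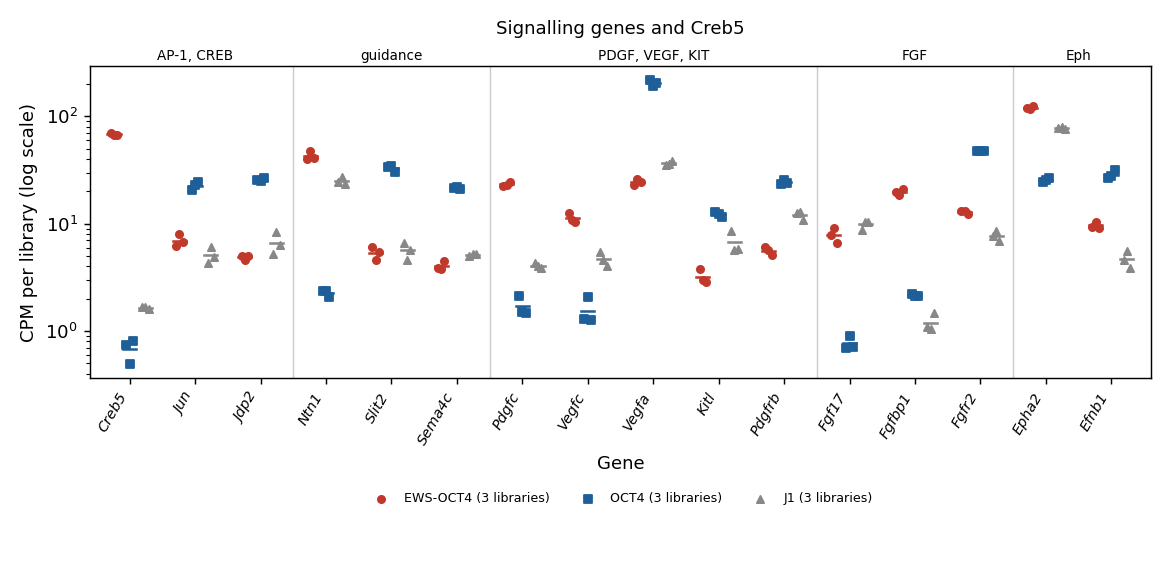
CPM per library (log axis) of Creb5, AP-1, guidance and growth factor genes, with 3 points per line and a bar at the mean. Creb5, Ntn1, Pdgfc, Vegfc, Fgf17, Fgfbp1 and Epha2 had their higher values in EWS-OCT4 libraries, and Vegfa (23.2, 26 and 24.2 against 216, 191 and 207 CPM), Slit2 and Fgfr2 were lower.

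Notch, Hedgehog, Hippo and PI3K pathway genes had medians between -0.21 and 0.08. In the Notch pathway, 7 of 21 tested genes were higher and 10 lower. Lfng, which adds sugars to Notch receptors, rose from 1.85, 1.94 and 1.93 CPM to 6.88, 8.4 and 6.7 CPM. The target genes Hes1 and Nrarp, which Notch signalling turns on in many tissues, were lower. Hes1 fell from 44.2, 45.9 and 39.95 CPM to 18.9, 19.1 and 16.9 CPM, and Nrarp, a feedback inhibitor, from 12.5, 13.5 and 13.9 CPM to 2.07, 2.73 and 2.19 CPM, 5.68-fold. Of the 4 tested genes of the target role, which does not hold Nrarp, 3 were lower and 0 higher.

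In the Hedgehog pathway 7 of 14 tested genes were higher and 4 lower, but the higher count went to 4 with upper-quartile scaling and when EWS-OCT4 replicate 3, OCT4 replicate 2 or OCT4 replicate 3 was left out. Gli1, the pathway's own target and activator, rose from 21.5, 26.3 and 23.7 CPM to 48.2, 51.5 and 50.4 CPM, 2.1-fold. In the Hippo pathway 8 of 21 were higher and 7 lower. Ccn2 and Ccn1, 2 YAP target genes that code for matrix proteins, moved apart. Ccn2 rose from 15.8, 19.7 and 18.8 CPM to 60.9, 62.7 and 60.7 CPM and Ccn1 fell from 40.4, 39.8 and 41.2 CPM to 19.6, 20.4 and 22.6 CPM. In the PI3K and mTOR list 14 of 38 were higher and 16 lower. Of its 11 inhibitors 7 were lower and 3 higher: Ddit4, a stress-induced mTORC1 inhibitor, fell from 62.4, 74.1 and 77.6 CPM to 19.5, 17.7 and 18.7 CPM, and Sesn1, a p53-induced one, from 23.3, 22.9 and 24.9 CPM to 9.23, 9.09 and 8.76 CPM.

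Genes of fatty acid use were among the most lowered groups. Fatty acid oxidation brings acyl chains into mitochondria on carnitine and shortens them, and PPAR receptors turn many of its genes on. Of 42 tested genes 30 were lower and 5 higher, 18 and 1 of them by at least 2-fold, with a median of -0.75. By role, 12 of 15 PPAR targets, 10 of 16 mitochondrial genes and 7 of 10 peroxisomal genes were lower, and 2, 2 and 1 were higher. Members that passed the filter through OCT4 libraries alone had to differ, so these counts describe the tested genes only. Vnn1, a pantetheinase and PPAR alpha target, was read at 0.144, 0.13 and 0.168 CPM in the EWS-OCT4 libraries and 11.7, 11.1 and 12.6 CPM in the OCT4 libraries, 76.9-fold lower (log2 -6.26, SE 0.257, adjusted p = 1.1e-12). Cidea, a lipid droplet protein of brown fat, gave 0.769, 0.26 and 0.295 CPM against 14.5, 14.8 and 17.7 CPM. Pdk4, the kinase that spares glucose by blocking pyruvate dehydrogenase, gave 3.89, 4.37 and 3.16 CPM against 29.2, 27.5 and 29.2 CPM. No EWS-OCT4 library reached an OCT4 library in these genes, and the J1 mean of Vnn1 was 0.112 CPM. The lipid carrier gene Fabp3 fell from 519, 566 and 642 CPM to 96.1, 108 and 114 CPM. Fabp5, a related carrier, fell from 145, 138 and 151 CPM to 32.7, 31.2 and 27.2 CPM. Slc25a20, the carnitine carrier of the mitochondrial membrane, fell from 76, 84.7 and 87.7 CPM to 27.9, 26.8 and 30.1 CPM. Cpt1a, the entry enzyme of the pathway, fell 1.92-fold (54.9, 54 and 51.2 against 103, 105 and 99.9 CPM). The last 3 were named after their values were seen. Rises were small in number: Angptl4, a secreted inhibitor of lipoprotein lipase, was 2.0-fold higher (13.8, 13.2 and 12.7 against 6.79, 7.36 and 5.67 CPM).

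Lipid transport genes followed with 18 lower and 8 higher of 32 tested, 11 and 3 of them by at least 2-fold, and a median of -0.60. Lrp2, the endocytic receptor megalin, fell from 99.1, 96.9 and 89.99 CPM to 17, 19.5 and 17.8 CPM, 5.26-fold. Lpl, the lipase that frees fatty acids from lipoproteins, fell from 51.3, 56.1 and 52.2 CPM to 23.1, 21.4 and 22.2 CPM. Apoc1, an apolipoprotein gene, fell from 30.4, 34.3 and 34.1 CPM to 12.4, 11.6 and 13.7 CPM. The neighbouring Apoe rose from 195, 206 and 242 CPM to 320.3, 354 and 352 CPM, 1.59-fold. Apod, a lipocalin, rose 3.31-fold (18.4, 17.9 and 20.01 against 4.8, 6.14 and 6.05 CPM). The lines did not overlap in these 5 genes. Lrp2 is also a gene of extraembryonic endoderm, whose markers had 6 lower and 2 higher calls and a sum that turned without Col4a1; their part in the result was not tested.

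One-carbon metabolism genes were called in both directions. Folate enzymes move single-carbon units for nucleotide synthesis, and the betaine branch remakes methionine from homocysteine by a separate route. Of 40 tested genes 22 were higher and 10 lower, with a median of 0.19. Folate genes gave 10 higher and 2 lower of 14, glycine and threonine genes 5 higher and 0 lower of 6, and betaine genes 2 higher and 3 lower of 7. Bhmt, which uses betaine to methylate homocysteine, stood near 0, at 0.288, 0.519 and 0.505 CPM in the EWS-OCT4 and 34.7, 37.5 and 37.2 CPM in the OCT4 libraries, 81.3-fold lower (log2 -6.35, SE 0.191, adjusted p = 2.36e-14). Its neighbour Bhmt2, named after its values were seen, gave 0.0481, 0.13 and 0.0421 CPM against 3.46, 3.39 and 2.56 CPM. Dmgdh, the next enzyme on the betaine route and also on chromosome 13, gave 0.0962, 0.26 and 0.421 CPM against 9.7, 7.32 and 8.99 CPM. All 3 fell at least 32-fold as fitted, and the J1 means were 1.09, 1.15 and 1.84 CPM. The 2 formyltetrahydrofolate dehydrogenases moved apart: cytosolic Aldh1l1 fell from 17.2, 19.7 and 20.4 CPM to 3.8, 4.72 and 4.97 CPM and mitochondrial Aldh1l2 rose from 2.95, 2.35 and 2.52 CPM to 7.79, 7.1 and 8.26 CPM. Tdh, the threonine dehydrogenase on which mouse embryonic stem cells depend, rose from 36, 42.7 and 40.3 CPM to 85, 86.6 and 90.1 CPM, with a J1 mean of 267 CPM. Odc1, the first enzyme of polyamine synthesis, rose from 218, 201 and 205 CPM to 454, 432 and 439 CPM. These 4 genes separated the lines in each library.

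Transporter genes for amino acids, glucose and monocarboxylates gave 21 higher and 13 lower of 47 tested, 10 and 5 of them by at least 2-fold. The X-linked arginine and lysine transporter gene Slc7a3 rose from 12.7, 10.8 and 11.2 CPM to 95.6, 86.8 and 95.9 CPM, 8.01-fold (log2 3.001, SE 0.0896, adjusted p = 2.32e-14). The related Slc7a2 fell from 7.11, 8.45 and 6.01 CPM to 2.84, 1.82 and 1.64 CPM. The glutamine transporters Slc38a1 and Slc38a2, named after their values were seen, rose 2.45- and 2.43-fold, to 179.5, 179 and 171 and 243, 231 and 238 CPM from 74.2, 72.4 and 69.8 and 101, 97.3 and 93.7 CPM. Slc2a4, the insulin-responsive glucose transporter gene, fell from 4.99, 6.32 and 5.71 CPM to 1.35, 0.952 and 0.927 CPM. The glucose transporter gene of this list with the most counts, Slc2a3, did not pass the test (1108, 1107 and 1091 against 1095, 1141 and 1078 CPM).

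**Figure D4:**
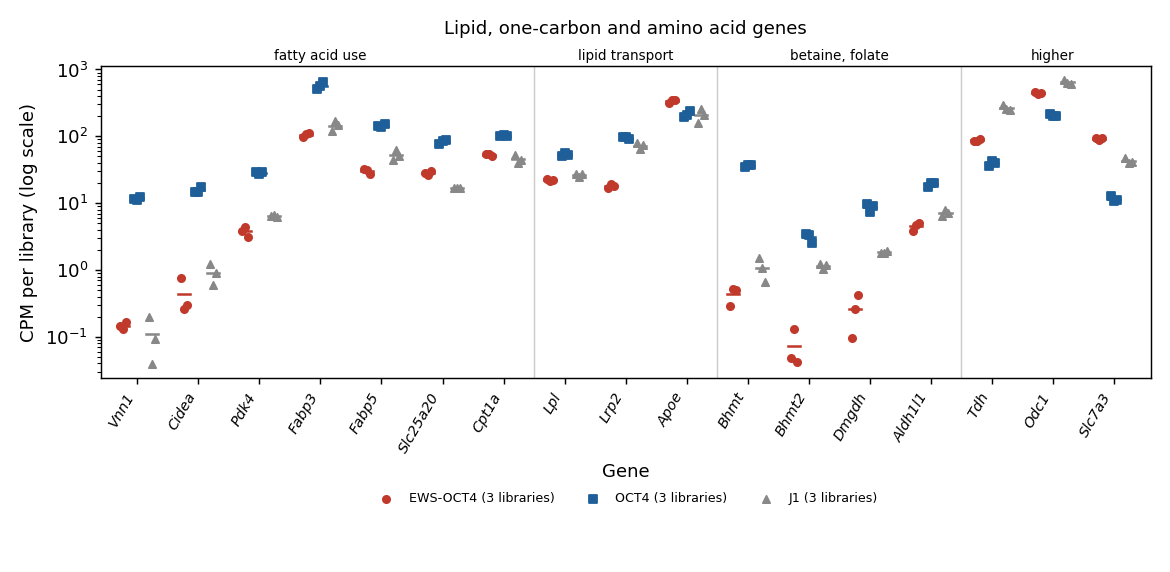
CPM per library (log axis) of lipid, one-carbon and amino acid genes, with 3 points per line and a bar at the mean. Bhmt stood at 0.288, 0.519 and 0.505 CPM in the EWS-OCT4 and 34.7, 37.5 and 37.2 CPM in the OCT4 libraries, and Apoe, Tdh, Odc1 and Slc7a3 were higher in the EWS-OCT4 line.

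Glutathione and NRF2 response genes gave 12 higher and 22 lower of 48 tested and a median of -0.19. Gstt1, a glutathione transferase, fell from 14.4, 12.6 and 13.8 CPM to 2.02, 2.21 and 2.15 CPM. Sod1, the cytosolic superoxide dismutase, rose from 277, 243 and 271 CPM to 439.6, 429 and 431 CPM. Reads of near-identical transferases such as Gstp1, Gstp2 and Gstp3 may be shared, so Gstp2, 3.41-fold lower, is uncertain. In iron and metal handling, 6 genes were higher and 8 lower of 24 tested. Steap3, the endosomal iron reductase, fell from 88, 93.7 and 94.1 CPM to 15, 13.7 and 14.1 CPM, 6.45-fold, and the metallothioneins Mt1 and Mt2 fell 2.82- and 2.37-fold, to 95.1, 100.3 and 103 and 152, 166 and 162 CPM from 269.9, 259 and 313 and 376, 368 and 395 CPM. The iron exporter ferroportin, Slc40a1, rose from 3.0, 2.44 and 1.85 CPM to 8.65, 7.23 and 7.03 CPM. The transferrin receptor gene Tfrc (361, 328 and 323 against 377, 364 and 359 CPM) and the ferritin gene Fth1 (518, 578 and 559 against 523, 543 and 595 CPM) did not pass the test.

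Lists of protein and DNA maintenance genes had medians slightly above that of all genes, though not in each of their groups. The proteasome, which degrades ubiquitin-tagged proteins, had all 45 subunit and assembly genes tested: 25 were higher and 2 lower, 1 and 0 of them by at least 2-fold, with a median of 0.26. Of the 14 core genes 7 were higher and 0 lower, and of the 24 regulatory genes 15 were higher and 2 lower. Psmc4, an ATPase subunit, was read at 142, 155 and 153 CPM against 77.5, 81.9 and 85.4 CPM, 1.84-fold higher with no overlap. Psmb10, an immunoproteasome subunit of low count, was 3.51-fold higher (6.54, 5.71 and 4.25 against 2.03, 1.49 and 1.18 CPM). The lower pair, the X-linked Psmd10 and Psmd8, fell 1.58- and 1.21-fold. Most of these differences were below 1.5-fold.

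Chaperones, which fold proteins, gave 31 higher and 13 lower of 54 tested and a median of 0.27, with 18 higher and 3 lower of 25 ER chaperones, 4 higher and 1 lower of 6 mitochondrial ones and 9 higher and 9 lower of 23 cytosolic ones (median -0.06). Pdia4, an ER disulfide isomerase, rose from 184, 174 and 189.7 CPM to 343, 348 and 367 CPM. Hspa5, the ER chaperone BiP, rose from 418, 386 and 410.3 CPM to 659, 644 and 673 CPM, and Hsp90b1, its HSP90 partner, from 934, 800.0 and 905 CPM to 1335, 1315 and 1324 CPM; both were named after their values were seen. The cytosolic nucleotide exchange factor gene Hsph1 rose 2.44-fold (274, 264 and 275 against 119.7, 105 and 109 CPM). Against this, Hspa12a, a distant HSP70 relative, fell from 45.4, 52.9 and 46.4 CPM to 5.29, 4.63 and 4.72 CPM and the small heat shock gene Hspb8 from 68.4, 77 and 72.3 CPM to 12.3, 11 and 9.06 CPM. Hspa1a was 4.67-fold lower, but shares most of its sequence with Hspa1b and is uncertain.

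DNA repair genes gave 37 higher and 18 lower of 81 tested, 4 and 2 of them by at least 2-fold, and a median of 0.17. Mismatch repair genes gave 5 higher and 0 lower of 7, end joining genes 6 and 1 of 10, and Fanconi genes 7 and 3 of 12. The largest groups were balanced, with 7 higher and 6 lower of 19 homologous recombination genes (median -0.09) and 6 higher and 7 lower of 23 base and nucleotide excision genes (median 0.04). Apex1, the base excision endonuclease, rose from 35.4, 42.1 and 36.5 CPM to 101, 102 and 99.6 CPM, 2.66-fold. Brca2, a gene of homologous recombination, rose from 173, 162 and 145 CPM to 344, 343 and 341 CPM. The mismatch genes Msh3 and Mlh3, named after their values were seen, rose 1.94- and 1.88-fold, to 57.9, 53.8 and 57.8 and 52.6, 52.7 and 52.4 CPM from 31.6, 27.9 and 28 and 29.6, 27.5 and 26.9 CPM. H2ax, the histone marked at breaks, fell from 265, 293 and 293 CPM to 129, 129.6 and 133 CPM, and Ercc5, a nucleotide excision nuclease, from 114, 113 and 106 CPM to 67.4, 62 and 63.3 CPM. None of these genes overlapped between the lines. Lysosome and autophagy genes gave 21 higher and 36 lower of 74 tested and a median of -0.19. Psap, the precursor of lysosomal saposins, fell from 401, 418 and 397 CPM to 174, 166 and 172 CPM, 2.38-fold. Wipi1, an early autophagy factor, fell from 30.01, 32.5 and 32.5 CPM to 8.46, 7.7 and 7.03 CPM. Tpp1, a lysosomal protease, rose from 35.3, 35.7 and 33.8 CPM to 76.2, 73.4 and 74 CPM, and Mitf, a regulator of lysosome and pigment cell genes, from 15.4, 17 and 14.5 CPM to 37.8, 36.3 and 33.6 CPM.

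**Figure D5:**
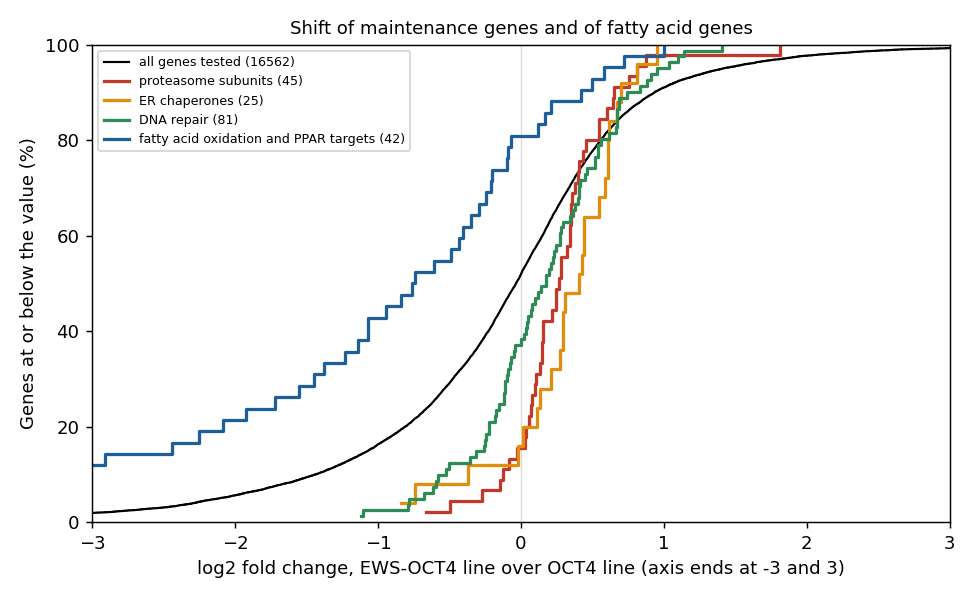
Cumulative share (%) of genes at or below each log2 fold change for all 16562 genes tested, proteasome subunits, ER chaperones, DNA repair and fatty acid genes. The curves of the first 3 lists lie to the right of all genes over most of their range (medians 0.26 for the proteasome and 0.17 for DNA repair), and that of fatty acid genes lies to the left (median -0.75).

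Contractile genes changed strongly and in both directions, with 17 higher and 19 lower of 45 tested, 13 and 14 of them by at least 2-fold. Among smooth muscle genes that rose, Tagln, which encodes transgelin, went from 1.34, 1.26 and 1.18 CPM to 16.9, 19 and 18.7 CPM, 14.4-fold (log2 3.85, SE 0.143, adjusted p = 2.98e-13). Acta2, smooth muscle actin, went from 0.231, 0.136 and 0.252 CPM to 4.95, 4.33 and 3.83 CPM, and Myl9, a smooth muscle myosin light chain, from 0.416, 0.497 and 0.588 CPM to 4.42, 4.59 and 3.88 CPM; both were named after their values were seen. The striated muscle troponin genes Tnnt3 and Tnnt1 fell. Tnnt3 went from 9.79, 11.2 and 13 CPM to 0.0962, 0.433 and 0.211 CPM and Tnnt1 from 25.8, 24.1 and 29.6 CPM to 6.35, 7.32 and 6.66 CPM. By role, 5 of 10 actin genes were higher and 4 lower, and of 7 troponin genes 1 was higher and 4 lower. Not all sarcomere genes fell, since Actn3 rose from 3.92, 4.56 and 4.66 CPM to 22.7, 22.7 and 25.7 CPM and the titin gene Ttn from 33.4, 37.9 and 26.1 CPM to 124, 120.3 and 126 CPM. Of the cardiac markers, Tnnt2 and Myl7 were higher in the EWS-OCT4 line, by 1.06 and 0.94 on the log2 scale, at few counts. Tnnt2 gave 1.44, 2.12 and 1.26 against 0.554, 0.949 and 0.798 CPM. Myl7 gave 1.25, 0.822 and 1.35 against 0.646, 0.542 and 0.588 CPM. Of 9 tested mesoderm and cardiac markers 4 were higher and 3 lower. The part of such cells was not tested.

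Proteoglycans carry long sugar chains that bind growth factors at the cell surface and in the matrix. Among proteoglycans and heparan sulfate enzymes 11 were higher and 18 lower of 40 tested, with a median of -0.26, and 8 of 12 tested cell surface proteoglycans were lower and 1 higher. Sdc4, a syndecan of focal adhesions, fell from 232, 259 and 255 CPM to 45.7, 43.6 and 40.6 CPM, 5.74-fold. Bgn, the X-linked matrix proteoglycan biglycan, fell from 13.5, 13.6 and 15.1 CPM to 1.11, 0.996 and 0.80 CPM. Sulf1, a sulfatase that trims heparan sulfate outside the cell, rose from 16.6, 18 and 17.6 CPM to 64.1, 60.9 and 61.5 CPM, and Ext1, which builds the chains, from 22, 21.2 and 21.6 CPM to 51.3, 48 and 48.6 CPM. Hpse, which cuts them (named after its values were seen), fell from 3.37, 2.89 and 3.49 CPM to 0.337, 0.173 and 0.548 CPM. The basement membrane gene Hspg2 did not pass the test (667, 729.6 and 699 against 635, 719 and 629 CPM).

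Extracellular proteases and their inhibitors gave 22 higher and 27 lower of 63 tested, 13 and 13 of them by at least 2-fold. The 2 plasminogen activators moved in opposite directions: urokinase, Plau, rose from 1.2, 1.49 and 1.47 CPM to 15.3, 14.2 and 13.3 CPM and its receptor gene Plaur from 1.94, 1.9 and 2.06 CPM to 5.77, 7.06 and 7.88 CPM, while tissue plasminogen activator, Plat, fell from 9.74, 11.2 and 9.45 CPM to 1.68, 1.64 and 1.81 CPM. The fold changes were 10.2 and 3.51 upwards and 5.89 downwards. Timp3, a matrix-bound inhibitor of metalloproteases, fell from 13.5, 13.9 and 14.5 CPM to 2.69, 2.99 and 2.49 CPM. In the protocadherin list 33 of 65 genes were tested, 12 were higher and 6 lower. Celsr3, a planar polarity cadherin, rose from 2.72, 3.39 and 2.77 CPM to 18.3, 19.95 and 18.4 CPM. Fat1, a giant cadherin, rose 1.49-fold (714, 739 and 707 against 473, 515 and 462 CPM). Of 22 clustered gamma genes 10 were higher and 2 lower, but these share exons, so single members and the list's median are uncertain.

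Outside the lists, genes were grouped by the first letters of their symbols, and the families named here were chosen by these values. By the share at least 2-fold higher, microRNA and POU symbols ranked 4 and 5. The Myl, Serpinb and Nlrp families ranked above them and are not described as families. By the share at least 2-fold lower, the Ly family ranked 3 and is not described either. Of 13 tested symbols of microRNA and host genes, 4 were higher and 4 lower, 4 and 1 of them by at least 2-fold, with a median of -0.50. Mir17hg, the precursor of the miR-17-92 cluster on chromosome 14, rose from 13.3, 11.8 and 13.2 CPM to 57.7, 51.8 and 55.1 CPM, 4.29-fold (log2 2.10, SE 0.0858), above every OCT4 library and the J1 mean of 12.4 CPM. The cluster is known to promote proliferation. Its 6 mature microRNAs, matched in RefSeq (GRCm38.p6), are printed with the seed, bases 2 to 8, in capitals.
mmu-miR-17-5p: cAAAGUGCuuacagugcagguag
mmu-miR-20a-5p: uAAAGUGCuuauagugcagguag
mmu-miR-18a-5p: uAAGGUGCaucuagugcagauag
mmu-miR-19a-3p: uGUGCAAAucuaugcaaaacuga
mmu-miR-19b-3p: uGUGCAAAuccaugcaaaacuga
mmu-miR-92a-3p: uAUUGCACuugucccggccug
They have 4 seeds, with miR-17-5p and miR-20a-5p sharing one and miR-19a-3p and miR-19b-3p another. The microRNA genes themselves had 0 counts, so the rise is of the host transcript and the mature forms were not measured. The POU family had 4 higher and 4 lower of 10 tested genes, 3 and 2 of them by at least 2-fold, with Pou5f1 and Pou3f3 the lower 2. Pou4f2 rose from 0.693, 0.316 and 0.336 CPM to 5.96, 5.89 and 5.22 CPM. Pou3f1, of the same class as the lowered Pou3f3, rose from 2.54, 3.16 and 2.56 CPM to 8.17, 8.83 and 8.8 CPM. On the lower side, the X-linked families Xlr (8 of 9 tested genes at least 2-fold lower) and Rhox (8 of 11) came first. Rhox9, a reproductive homeobox gene, fell from 39.1, 45 and 46.8 CPM to 7.79, 5.89 and 7.03 CPM. Xlr members are near copies of each other, so their single values are uncertain. Both families lie on the chromosome whose median was -0.52.

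OCT4 binds the octamer ATGCAAAT, and EWS fusions with ETS factors are known for GGAA repeats, so promoters (250 bases before to 50 after each RefSeq start) were searched on both strands. Of the 16562 genes, 12526 had a promoter in the table. The octamer occurred in 33 of 1029 genes at least 2-fold higher (3.21%), 40 of 1904 at least 2-fold lower (2.10%) and 1.72% of all. GGAAGGAA occurred in 4.57%, 4.94% and 4.26%. A match is a description of letters, not a bound site. The promoters of Liph and Gadd45g are shown because these are the named genes with the largest rise and the largest fall that hold an octamer, in capitals, on GRCm38.p6. Liph encodes a membrane-bound lipase, on the minus strand, with the octamer 87 bases before its start. Gadd45g encodes a growth arrest protein, on the plus strand, with the octamer on the other strand 103 bases before its start.
Liph promoter, chr16:21995493-21995792: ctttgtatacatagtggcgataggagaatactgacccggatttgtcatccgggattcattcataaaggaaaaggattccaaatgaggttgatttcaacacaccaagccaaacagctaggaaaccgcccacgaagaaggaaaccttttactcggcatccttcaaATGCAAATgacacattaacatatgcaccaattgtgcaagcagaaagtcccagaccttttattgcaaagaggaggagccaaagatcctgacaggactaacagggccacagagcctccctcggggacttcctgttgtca
Gadd45g promoter, chr13:51846425-51846724: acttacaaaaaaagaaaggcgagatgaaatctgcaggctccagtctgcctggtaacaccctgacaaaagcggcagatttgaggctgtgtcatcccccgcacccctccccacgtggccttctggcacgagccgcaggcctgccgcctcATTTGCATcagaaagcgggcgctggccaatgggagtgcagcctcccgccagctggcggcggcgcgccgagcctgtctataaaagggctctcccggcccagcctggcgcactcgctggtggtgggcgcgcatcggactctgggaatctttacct
Liph rose from 4.85, 4.25 and 3.74 CPM in the OCT4 libraries to 44.4, 49.1 and 45.7 CPM in the EWS-OCT4 libraries, 10.9-fold, and the J1 mean was 32.1 CPM. Gadd45g fell from 34, 35.1 and 33.2 CPM to 2.02, 2.29 and 2.61 CPM, 14.7-fold, and the J1 mean was 0.802 CPM. Genes with the same letters thus moved in opposite directions, each without overlap between the lines.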

How the data were processed

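RNA-seq libraries were made with the CORALL RNA-seq V2 kit from total RNA, per the labels' protocols. Reads were processed with fastp, STAR, Salmon and GATK against GRCm39, per the submitters' processing notes, which give no roles or strand setting, so reads of genes that overlap on opposite strands may not be told apart. The deposited values are whole-number counts per gene symbol, not normalized by the authors. Genes and lists were chosen with earlier results of these data known, so no list's direction is independent evidence.

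From these counts, 16562 of 40213 symbols passed edgeR's filterByExpr (12189 had no count in any library). TMM scaling and edgeR's quasi-likelihood test (glmQLFit and glmQLFTest, edgeR 4.0.16, limma 3.58.1, R 4.3.3) were fitted to all 9 libraries in 3 groups without a replicate block, and p-values were adjusted by Benjamini-Hochberg over all genes tested. CPM use the TMM-scaled library sizes. The fit was tested on simulated data with known changes. It recovered 20.4% of 1.25-fold, 60.9% of 1.5-fold, 80% of 2-fold and 92% of 4-fold changes, and called 6 of 16009 unchanged genes. Far fewer genes were changed there than were called here, so it cannot test the scaling or the false calls of these data. Replicates differed beyond sampling noise (chi-square per degree of freedom 3.36 to 32.0), so none were merged.

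Named genes were the 15 largest changes per direction at 10 CPM or more; up to 3 per direction in each list at 5 CPM or more without overlap between the lines; the 2 members with the most counts per list; up to 2 per direction in described symbol families; and Pou5f1 and Ewsr1. A few others are marked as named after their values were seen, and some genes that the rule names are not reported here. Alternatives were DESeq2 1.42.0, limma-voom, other scalings and filters, a 1.5-fold threshold, a replicate block and leaving out each library. Without a GRCm39 annotation, chromosomes come from a RefSeq table of GRCm38.p6, as do the sequences.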

Additional observations from a re-analysis of the deposited data

How the results depend on the processing

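Neither Pou5f1 nor any called gene among the 291 others examined changed direction under any alternative. Marker genes that did not meet the naming rule were not examined in this way. Some list medians changed sign. The counts of 5282 higher and 5730 lower genes became 1852 and 2854 when changes were tested against a fold of 1.5, and the counts of at least 2-fold changes, 1414 higher and 2612 lower, became 662 and 1246 among genes with at least 5 CPM in 3 libraries; fewer genes can pass by construction. With upper-quartile scaling 4921 were higher and 6027 lower, and with DESeq2 5299 and 5381. Leaving out each library in turn gave 4914 to 5617 higher, 5262 to 6048 lower, 1431 to 1502 at least 2-fold higher, 2607 to 2738 at least 2-fold lower, and a Pou5f1 log2 fold change of -2.66 to -2.56. Deviations of libraries of the same number correlated weakly (0.016, 0.026 and 0.057). With 3 libraries per line, this cannot show whether the numbers pair them. With the number as a replicate block the counts were 5419, 5827, 1416 and 2607, Pou5f1 stayed at -2.62, and of 291 gene results the call of Ewsr1 alone changed (adjusted p = 0.022). Of these, 274 were called, and the 1.5-fold threshold ended 56 of the calls. Scaling alternatives moved the median of all genes by at most 0.04. The medians of the AP-1, transporter, contractile, iron and guidance lists changed sign under at least 1 alternative, and those of the other 27 lists kept it. Their size was less stable. Among genes with at least 5 CPM in 3 libraries, 24 of 32 medians moved by at least their standard deviation over the EWS-OCT4 libraries. Of 64 counts of list members called, 43 moved by over 1.5 times when changes were tested against a fold of 1.5. Among genes with at least 5 CPM in 3 libraries 20 did. Without the count filter 5760 genes were higher and 6055 lower; at this depth genes of few counts, most Hox genes among them, are the least precise.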

Other observations

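Some families not covered above also differed. Of 23 circadian clock genes 7 were higher and 11 lower. Bhlhe40 and Bhlhe41, which encode the clock repressors DEC1 and DEC2, fell 4.67- and 10.2-fold, from 64.4, 64.6 and 64.1 to 13.1, 14 and 14.2 CPM and from 6.51, 5.38 and 7.14 to 0.577, 0.519 and 0.758 CPM in the EWS-OCT4 line. The kinase gene Csnk1e, which acts on PER proteins, fell from 161, 164 and 167 CPM to 50.1, 52.7 and 51.6 CPM. Timeless, a replication fork protein named after a clock gene, rose 1.44-fold (139.5, 147 and 142 against 97.6, 102 and 97.4 CPM).

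Among calcium-binding S100 proteins, annexins and galectins 7 were higher and 11 lower of 25 tested. S100a13 fell from 51.2, 51.9 and 51.2 CPM to 4.86, 5.5 and 6.15 CPM and its neighbour S100a1 from 21.5, 22.9 and 22.3 CPM to 2.64, 1.73 and 2.91 CPM, while S100a6 rose from 15.1, 15.2 and 14.9 CPM to 35.4, 33.5 and 33.7 CPM. All 3 were free of overlap between the lines. Chemokine and cytokine genes with their receptors gave 8 higher and 22 lower of 45 tested, with 44 not tested. Their receptors gave 17 lower and 3 higher of 27 tested (of 46 listed). Among the lower was the scavenging receptor gene Ackr3 (2.64, 2.21 and 2.74 against 12, 11.6 and 11.1 CPM). Chemokines gave 2 higher and 3 lower of 7, and cytokines 3 higher and 2 lower of 11. Carbohydrate sulfotransferases (Chst) had 6 of 11 tested genes at least 2-fold lower, a family chosen by that share; Chst11, which sulfates chondroitin, fell from 20.7, 21.6 and 20.9 CPM to 4.47, 4.11 and 4.3 CPM. The interferon-induced Oas family, chosen in the same way, had 5 of 9 at least 2-fold lower, but Oas2 rose from 2.49, 2.53 and 2.06 CPM to 4.66, 5.71 and 5.31 CPM.

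The imprinted noncoding RNA H19 fell from 525, 614 and 660.5 CPM to 20.9, 19.8 and 20.8 CPM, 29.3-fold, with a J1 mean of 39.9 CPM. Tinagl1, which encodes a matrix protein, fell from 98.3, 107 and 106 CPM to 3.41, 3.33 and 4.04 CPM, 28.8-fold. Nt5e, the surface enzyme that makes adenosine, rose from 0.369, 1.04 and 0.672 CPM to 9.38, 10.1 and 11.2 CPM.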
